A study of Mus musculus with 7 samples.

Results

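The genes described here are heat shock proteins and chaperones with their partner proteins and transcription factors. These 50 genes were chosen by symbol, with earlier results of these data known. They were followed in bone-marrow-derived macrophages (BMDMs), cells grown from mouse bone marrow with the growth factor M-CSF. All 50 symbols were found, in 51 of the 48440 rows of the LPS table and in 50 of the 55352 rows of the AAV table. Hspa14 has 2 rows in the LPS table, ENSMUSG00000051396.15 and ENSMUSG00000109865.1, and GENCODE M21 gives the first of these identifiers the symbol Gm45902. The study examined Hspa8 as a protein partner of Shisa3, a membrane adaptor protein, and asked what Shisa3 does in macrophages.

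Every group came from BMDMs of wild-type C57BL/6 mice, and the study's methods describe its mice as young adults of both sexes, without saying which mice gave these cells. In the first experiment WT cells were left without treatment (0 h) or received 100 ng per mL LPS, a molecule of the bacterial surface that macrophages sense through TLR4, for 2 or 4 h, and each time point is a single library (n = 1). The second experiment used WT cells that carried an adeno-associated virus for 48 h, encoding either GFP (AAV-GFP) or Shisa3 (AAV-Shisa3, labelled as Shisa3 overexpression), with 2 samples per group. Both transgenes were driven by the CAG promoter, which is active in most cell types, and both AAV groups share the virus itself, since untransduced cells were not analysed here. Nothing in the labels says whether the 2 samples of a group came from separate cultures or mice, so the p-values measure only the spread between these samples.

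Chaperones help other proteins to fold, to stay folded and to be handed on for degradation. HSP70 proteins bind unfolded stretches in a cycle of ATP hydrolysis that J proteins start and that BAG proteins and HSP110 proteins restart by releasing ADP. HSP90 receives clients from HSP70 through adaptors such as Stip1, and the chaperonins enclose a client in a chamber. Heat shock factor 1 (Hsf1) binds heat shock elements, inverted repeats of the unit GAA, in the promoters of stress-inducible chaperone genes.

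The 3 LPS libraries held 7263258 to 32659392 reads, the fewest at 2 h, and 100% of the deposited values were whole multiples of 1 read within 0.01 reads. Depth of the AAV samples is unknown, because their values are in TPM, transcript abundance per length scaled to a fixed sum, which keeps no depth. All 9 macrophage markers were detected in every AAV sample, with summed levels of 34807 to 38389 TPM. Summed lymphocyte markers did not exceed 0.62 TPM, with Cd3e and Cd3d at 0 in every AAV sample, and dendritic cell markers did not exceed 1.06 TPM. In the LPS libraries the macrophage markers summed to 34545, 24164 and 19323 RPM (reads of a gene in every 1000000 reads of the library) at 0, 2 and 4 h, proliferation markers to 1163, 977 and 591 RPM and neutrophil markers to 389, 499.9 and 323 RPM. The part of these in the chaperone values was not tested. Shisa3 itself was at 7.88 and 10.85 TPM in the AAV-GFP samples against 12.31 and 17.81 TPM in the AAV-Shisa3 samples. That difference in Shisa3 was 0.63 ± 0.22 on the log2 scale (SE, n = 2 per group) and did not pass the threshold (adjusted p = 0.138, limma), although the groups did not overlap. The study separately reported overexpression of Shisa3 mRNA and protein in BMDMs 48 h after AAV-Shisa3. In the LPS libraries Shisa3 had 1, 164 and 3174 reads at 0, 2 and 4 h.

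Promoter sequence is shown first for chaperone genes whose windows hold heat shock element units, some of which led the LPS rises or passed the AAV test. RefSeq promoter windows on GRCm38.p6, from 250 bases before to 50 after a start site, were matched for 40 of the 50 genes in 53 windows. Hspa8 and St13 were not among the 40. The motif of 3 alternating units with 2 bases of any kind between neighbours (GAA, TTC, GAA or TTC, GAA, TTC), searched on both strands, lay in 6 of the 53 windows (11.3%) and in 198 of all 32851 windows (0.603%). The 6 windows overlap and cover only 3 stretches of the genome, in Dnajb6 and Hsph1 with a pair of start sites each and on the bases that Hspd1 and Hspe1 share, so each site is counted more than once. The shorter motif of 2 units, GAANNTTC or TTCNNGAA with N for any base, which lies inside the longer one, was found in 17 of the 53 windows (32.1%), from 15 genes, and in 4946 of all windows (15.1%). A match is a stretch of letters and not a measured binding site.

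Hspd1 and Hspe1, the chamber and the lid of the mitochondrial chaperonin, overlap at their 5′ ends on chromosome 1 in GENCODE M21 and are read in opposite directions. The same bases, chr1:55088053-55088082, are printed on the strand of each gene, with the run of heat shock element units in capitals. They overlap untranslated exon sequence of Hspd1 and lie before the annotated start of Hspe1.
Hspd1: ggggccTTCCGGAAGGTTCTAGAAcggacc
Hspe1: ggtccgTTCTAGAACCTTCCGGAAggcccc

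The inducible HSP70 genes Hspa1a and Hspa1b are single-exon neighbours on the minus strand of chromosome 17, and 247 of the 250 bases before their start sites were identical. The stretches chr17:34972242-34972271 and chr17:34959324-34959353, where GENCODE M21 annotates no feature, are shown because these genes had the largest LPS rises. Capitals mark the motif of 2 units, whose first base is 104 bases before each start.
Hspa1a: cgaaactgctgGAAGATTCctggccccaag
Hspa1b: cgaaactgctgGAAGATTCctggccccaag

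Dnaja1 and Hsph1 are the genes lower with AAV-Shisa3 whose window held a motif of 2 units before a start site. The Dnaja1 stretch, chr4:40722333-40722362 on the plus strand, overlaps sequence annotated as an exon of Dnaja1 and of Gm6297, and the Hsph1 stretch, chr5:149636351-149636380 on the minus strand, overlaps untranslated exon sequence of Hsph1. Dnajb6 is added as the remaining gene with 3 units, at chr5:29735844-29735872 on the plus strand, which overlaps untranslated exon sequence of Dnajb6 and coding sequence of Gm5129.
Dnaja1: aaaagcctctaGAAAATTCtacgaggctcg
Hsph1: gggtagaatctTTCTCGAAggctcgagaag
Dnajb6: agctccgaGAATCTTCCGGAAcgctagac

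After LPS the inducible HSP70 genes had larger rises than every other gene of the 50 at both times, while Hspa8 stayed within 2-fold on both scalings used below. Hspa1a had 10, 83 and 202 reads at 0, 2 and 4 h, which is 0.641, 11.4 and 6.19 RPM. Its 2 h level was 17.8 times the 0 h level in RPM, with a 95% counting interval (exact binomial) of 9.22 to 38.5. Hspa1b had 19, 137 and 299 reads, or 1.22, 18.9 and 9.16 RPM, a ratio at 2 h of 15.5 with an interval of 9.54 to 26.5. Both genes were higher at 2 h than at 4 h in RPM, with a 4 h to 2 h ratio of 0.541 (0.417 to 0.708) for Hspa1a and 0.485 (0.395 to 0.599) for Hspa1b. Of the 150-base windows of their transcripts, 39.7% for Hspa1a and 40.5% for Hspa1b occur also in the other gene or in Hspa1l, so their reads cannot be fully told apart. These intervals cover counting error only, and with 1 library per time point no difference has a replicate check.

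Each LPS log2 fold change is of the authors' values with a pseudocount of 1, and a gene is counted as higher or lower when it passed 2-fold. The authors' scaling and scaling to library totals differ, and the latter moves the median of all genes to -0.71 at 2 h and -0.83 at 4 h, against -0.05 and -0.04 on the authors' scale. For that reason the value on library totals is given beside the authors' one. At 2 h, 7 of the 51 chaperone rows were higher (13.7%), where 20.5% of all 17854 genes were, and 2 were lower (3.92%), where 24.7% of all genes were. At 4 h, 13 were higher (25.5%) against 22.2% of all genes and 4 were lower (7.84%) against 23.6%. From 2 h to 4 h, 2 rows were higher against 17.9% of all genes and 1 was lower against 15.2%. These shares of all genes include genes with few reads and fall with a larger pseudocount. With a pseudocount of 5, 2673 of the 17854 genes were higher at 2 h and 3197 lower. The counts were 3018 and 3198 at 4 h, and 1830 and 1551 from 2 h to 4 h. A comparison with genes of like level was not made. On library totals 4 of the 51 were higher (7.84%) against 13.9% of all genes and 8 lower (15.7%) against 41.2% at 2 h. At 4 h on library totals 6 were higher (11.8%) against 13.4% of all genes and 8 lower (15.7%) against 44.7%. The median of the chaperone rows was 0.28 at 2 h and 0.30 at 4 h, and -0.38 and -0.52 on library totals.

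Hspa1a and Hspa1b led the rises, with log2 fold changes at 2 h of 4.62 and 4.50 (4.05 and 3.89 on library totals) and at 4 h of 3.90 and 3.63 (3.17 and 2.85). Dnaja2, a J protein that delivers clients to Hspa8, was next, with 1711, 2122 and 16105 reads and log2 fold changes of 2.07 at 2 h and 2.99 at 4 h (1.41 and 2.17 on library totals). Stip1, the adaptor that joins HSP70 to HSP90, had 644, 764 and 3528 reads and log2 fold changes of 2.01 and 2.21 (1.35 and 1.39). Dnaja1, a related J protein, had 927, 694 and 4829 reads and log2 fold changes of 1.34 and 2.14 (0.68 and 1.31). Hspa1a and Hspa1b were higher at 2 h than at 4 h, Stip1 was level between them, and Dnaja1 and Dnaja2 were highest at 4 h. These 5 genes, with Dnaja4, passed 2-fold at 4 h on both scalings.

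**Figure D1:**
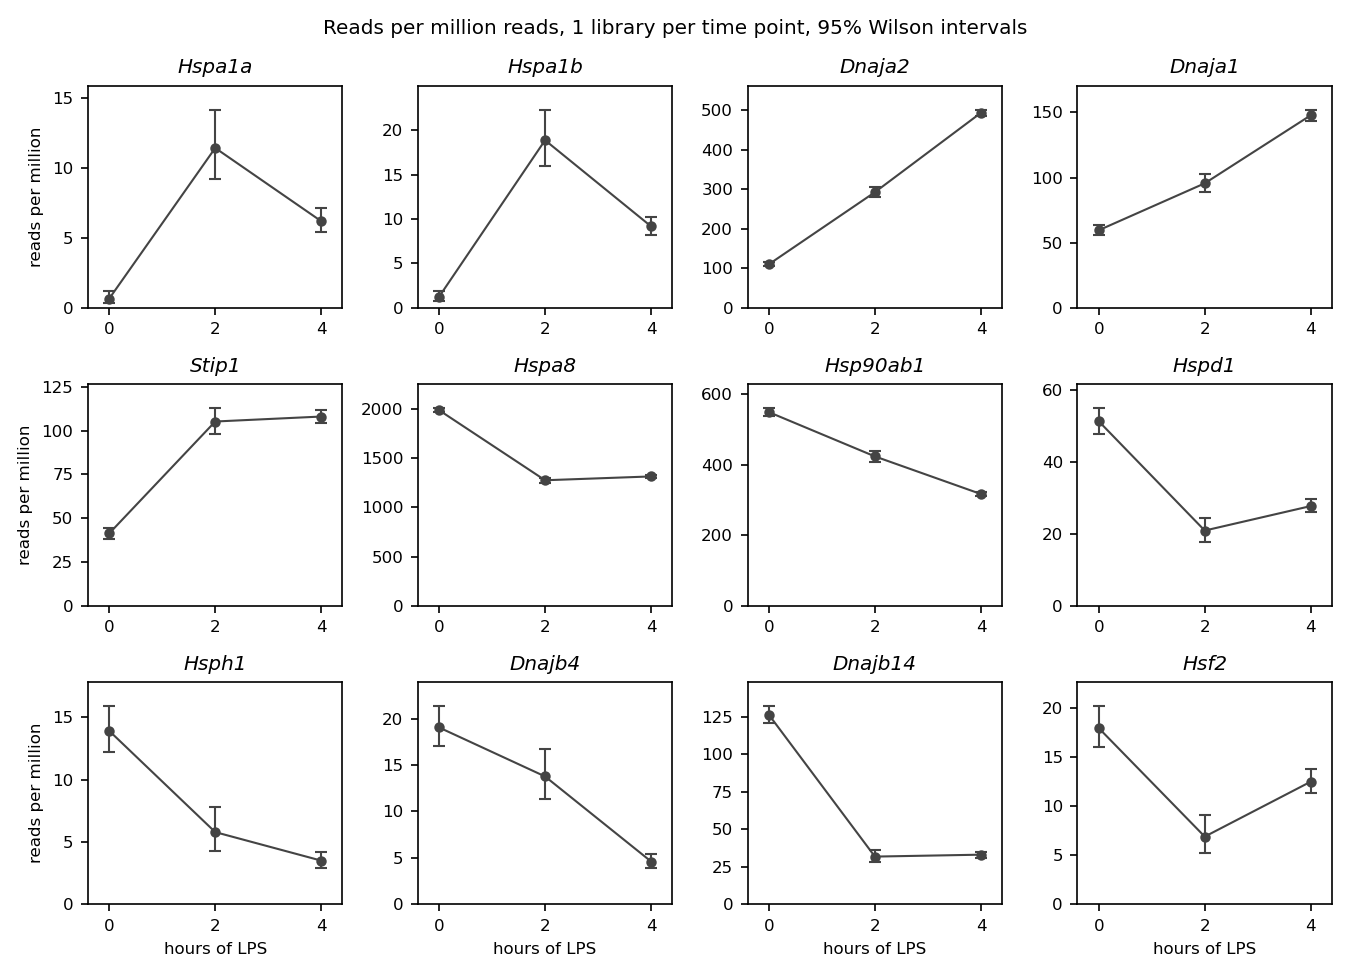
RPM (vertical axis, from 0 in each panel) against hours of LPS for 12 chaperone genes, 1 library per time point, with 95% Wilson intervals as bars. Hspa1a and Hspa1b peak at 2 h, Dnaja1 and Dnaja2 are highest at 4 h, and Hsph1, Dnajb4 and Dnajb14 are lowest at 4 h or level with 2 h.

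Dnaja4, a J protein used mainly in other tissues, had only 2, 0 and 17 reads. Its 4 h to 0 h ratio was 4.06 in RPM with a counting interval of 0.963 to 36.2 and, against 0 reads at 2 h, the lower counting limit of its 4 h to 2 h ratio was 0.918 in RPM. No fold is given for Dnaja4 at 2 h against 0 h, where both libraries are at or under 3 reads, although it counts among the 2 lower rows at 2 h. Hspb1, the small HSP that holds unfolding proteins without ATP, was close to absent as well, with 5, 2 and 5 reads.

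Other rises passed 2-fold on the authors' scale but not on library totals. Bag3, a partner of HSP70 in selective autophagy, had 316, 284 and 905 reads and log2 fold changes of 1.60 at 2 h and 1.27 at 4 h, but 0.95 and 0.45 on library totals. Hsp90aa1, the inducible cytosolic HSP90, had 1380, 717 and 4205 reads and log2 fold changes of 0.82 and 1.36 (0.16 and 0.54), while Hsp90ab1, the constitutive one, had 8547, 3072 and 10335 reads and 0.29 and 0.03 (-0.37 and -0.79). The same scale-dependent group at 4 h held Hspa13, an HSP70-like protein of the microsomes, Dnajb11, a J protein of the endoplasmic reticulum, Dnajb6, which holds back aggregation, and the chaperonin subunits Cct3 and Cct8, with log2 fold changes of 1.04 to 1.59 on the authors' scale and 0.22 to 0.77 on library totals.

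Dnajb14, a J protein anchored in the endoplasmic reticulum membrane, was the lowest chaperone gene at 2 h, with 1968, 230 and 1076 reads and log2 fold changes of -1.33 at 2 h and -1.11 at 4 h (-1.99 and -1.94 on library totals). Hsph1, the HSP110 exchange factor of HSP70, had 217, 42 and 114 reads and log2 fold changes of -0.60 and -1.16 (-1.26 and -1.98). Dnajb4, a cytosolic J protein, had 297, 100 and 150 reads, with 0.19 at 2 h and -1.22 at 4 h (-0.47 and -2.04), and was the only chaperone row past 2-fold lower between 2 h and 4 h on the authors' scale. Bag2, which blocks the ubiquitin ligase Stub1, had 23, 5 and 11 reads and a 4 h value of -1.18 (-1.97). All 4 were lower at 4 h on the authors' scale and on library totals, and none passed 2-fold when each library was centred on its median. Their 4 h to 0 h ratios in RPM ran from 0.228 to 0.261.

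Hspa8, the constitutive HSP70 and the member with the most reads, had 30981, 9265 and 42927 reads. Its log2 fold change was 0.02 at 2 h and 0.23 at 4 h on the authors' scale and -0.64 and -0.60 on library totals, so its direction rests on the scaling. Hspa8 took 31.4% of the reads of all chaperone rows at 0 h, 25.5% at 2 h and 25.2% at 4 h, a share that does not depend on how libraries are scaled to each other. Chaperone rows together took 0.633% of all reads at 0 h, 0.495% to 0.505% at 2 h (95% Wilson interval) and 0.522% at 4 h.

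Hsf1, the main factor of the heat shock response, had 309, 121 and 453 reads and log2 fold changes of 0.41 at 2 h and 0.31 at 4 h (-0.25 and -0.51 on library totals). Hsf2, a second heat shock factor, had 280, 50 and 408 reads and log2 fold changes of -0.72 and 0.30 (-1.38 and -0.52), and with Dnaja4 it was past 2-fold higher from 2 h to 4 h on the authors' scale. Hspd1 had 800, 152 and 906 reads, with -0.63 and -0.06 (-1.29 and -0.89), and Hspe1 had 558, 134 and 565 reads, with -0.29 and -0.22 (-0.95 and -1.05). Both were below 0 at both times on these scalings, but with libraries centred on their medians Hspd1 was at 0.31 at 4 h and Hspe1 at 0.02 and 0.15. The 7 CCT subunits listed here, which belong to the cytosolic chaperonin that folds actin and tubulin, lay between 0.06 and 1.09 at 2 h and between 0.13 and 1.59 at 4 h on the authors' scale, and 2 of the 7 were above 0 at each time on library totals. With TMM factors Cct4 was just below 0 at 2 h (-0.0036). The 2 rows under the symbol Hspa14, an HSP70-like protein at the ribosome, had 4 h values of -0.35 and -0.43 (-1.17 and -1.25), with 227, 57 and 211 reads in the first and 466, 135 and 410 in the second.

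**Figure D2:**
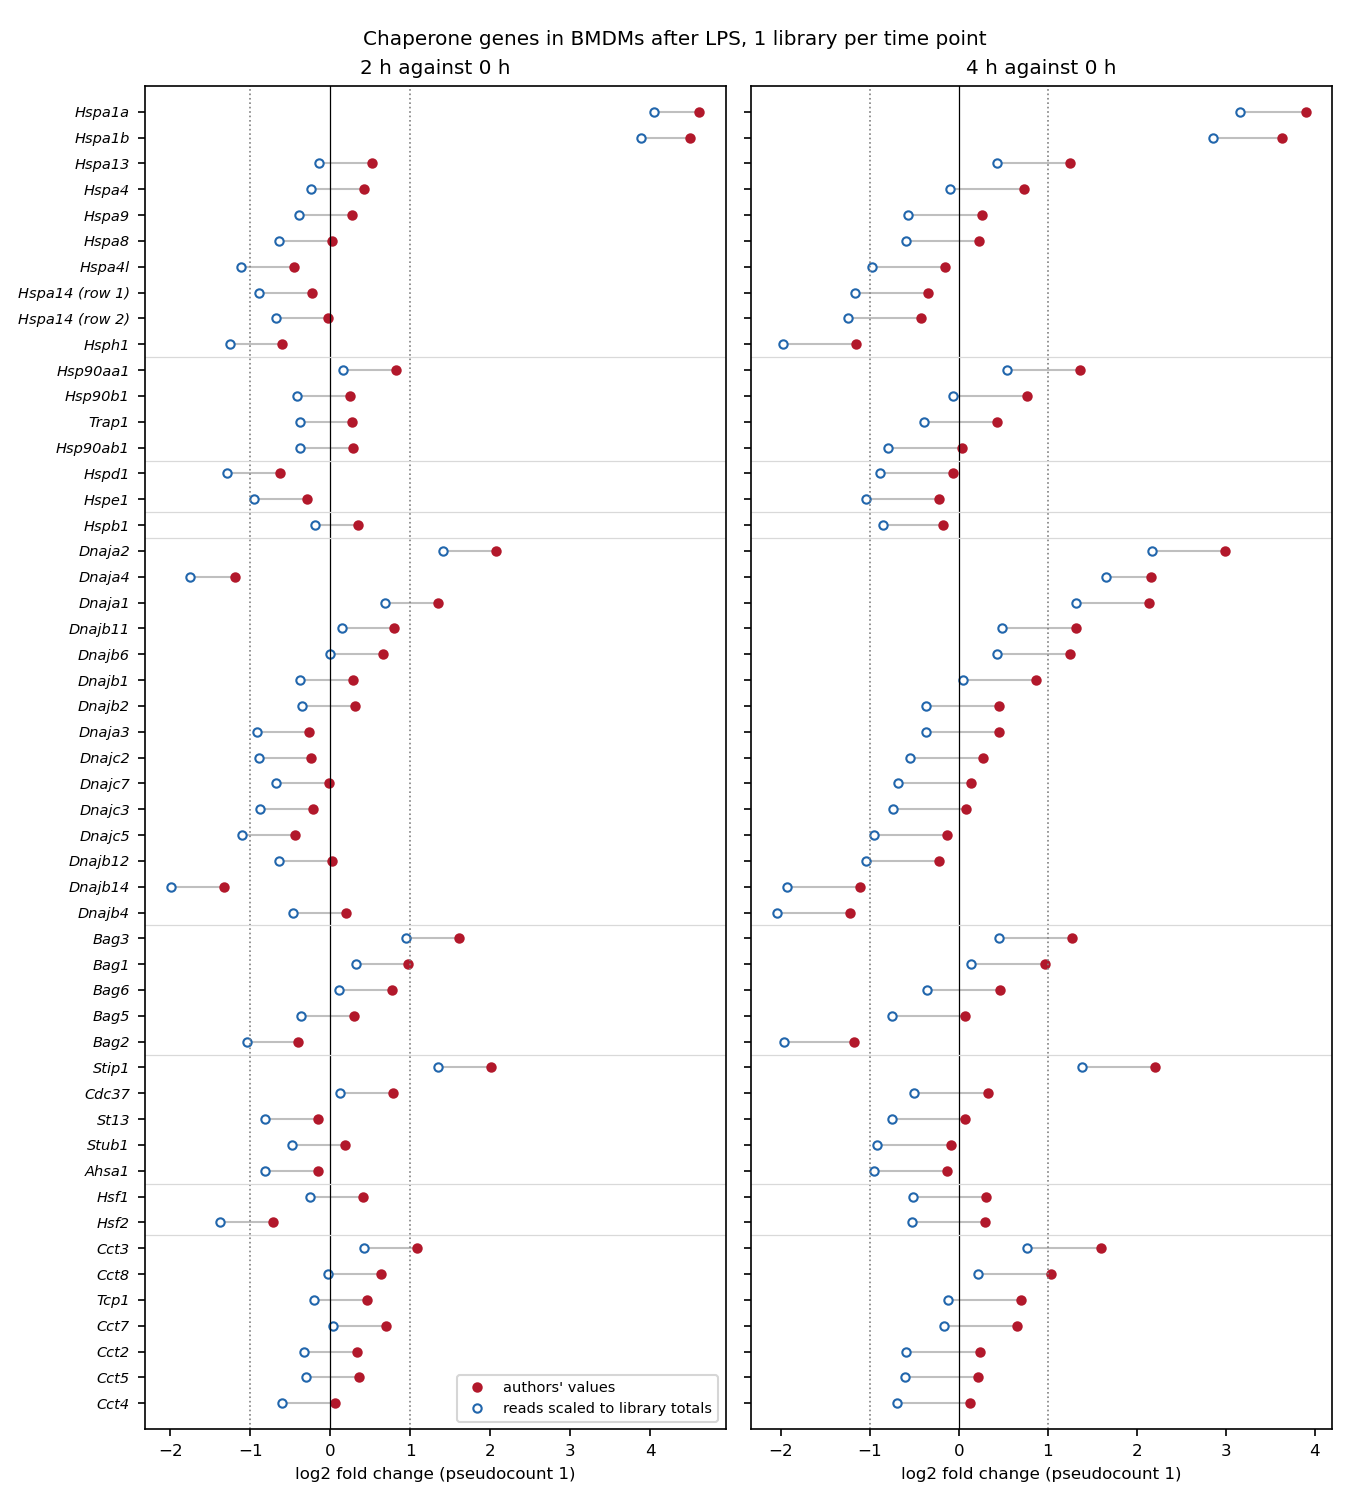
Log2 fold change (horizontal axis) of each of the 51 chaperone rows at 2 h (left) and 4 h (right) against 0 h, grouped by role, with filled points for the authors' values, open points for reads scaled to library totals and dotted lines at 2-fold. Hspa1a and Hspa1b lie apart on the right, and scaling to library totals moves every point to the left.

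Of 83 further genes of the chaperone system that are not among the 50, 77 passed the filter. At 4 h 12 were higher (15.6%) and 6 lower (7.79%) on the authors' scale, where 22.2% and 23.6% of all genes were. On library totals 5 were higher (6.49%) and 23 lower (29.9%), where 13.4% and 44.7% of all genes were, so each of these shares lay below that of all genes. Chaperones of the endoplasmic reticulum held 5 of those 12 higher genes, of 12 such chaperones tested, and 3 of them (Pdia6, Hspa5 and Manf) passed on library totals. Among them Hspa5, its HSP70, went from 4450 at 0 h to 15884 and 24602 in the authors' units, with log2 fold changes of 1.84 and 2.47 (1.17 and 1.64 on library totals). Hsp90b1, the HSP90 of that compartment and a member, had 6631, 2319 and 13320 reads and only 0.25 and 0.76 (-0.41 and -0.06). The 6 further genes lower at 4 h were Dnajc9, Dnajc18, Dnajb13, Hsf4, Bag4 and Dnajc28, each also lower on library totals. Dnajc28 changed most, from 135 at 0 h to 4.37 and 2.72 in the authors' units, with log2 fold changes of -4.66 and -5.19 (-5.36 and -6.03).

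With AAV-Shisa3, 6 chaperone genes passed the test and all 6 were lower, namely Hspa8, Ahsa1, Dnaja1, St13, Hspa4l and Hsph1, though none of them passed with any one sample left out, without the trend of variance on level or without the filter on low values. Of 50 genes 48 passed the filter of a mean of at least 1 TPM. Hspb1 (0.40 to 0.65 TPM) and Dnaja4 (0.25 to 0.27 TPM) did not. Using limma on log2(TPM + 1), with Benjamini-Hochberg adjustment over all 11218 genes and a threshold of 0.05, 6 of the 48 were lower (12.5%), where 4.10% of all genes were lower. None of the 48 was higher, where 2.23% of all genes were, and at an unadjusted p under 0.05 the counts were 1 higher (2.08%) and 14 lower (29.2%), where 8.21% and 19.8% of all genes were. Both AAV-Shisa3 samples were below both AAV-GFP samples in 24 of the 48 (50.0%), against 41.2% of all genes, and above them in 7 (14.6%), against 18.2%. The median log2 fold change was -0.09 over the 48 and -0.10 over all genes tested.

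Ahsa1, which activates the ATPase of HSP90, was at 563.44 and 492.45 TPM in AAV-GFP cells and at 311.67 and 260.0 TPM in AAV-Shisa3 cells. It fell by 0.89 on the log2 scale (SE 0.12, adjusted p = 0.022, limma). Dnaja1 was at 241.71 and 213.76 TPM in AAV-GFP cells and at 132.55 and 129.22 TPM in AAV-Shisa3 cells, a log2 fold change of -0.79 ± 0.09 (SE, adjusted p = 0.018, limma). In both genes each AAV-Shisa3 sample was far below each AAV-GFP sample.

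St13, the HSP70-interacting protein that steadies the ADP-bound state of HSP70, was at 201.88 and 222.48 TPM in AAV-GFP cells and at 141.38 and 128.61 TPM in AAV-Shisa3 cells (log2 fold change -0.65 ± 0.09, SE, adjusted p = 0.023, limma). Hspa4l, an HSP110-family protein, was low, at 6.37 and 5.92 TPM against 2.71 and 3.32 TPM (-0.83 ± 0.16, adjusted p = 0.040). Its relative Hsph1 was at 31.64 and 31.27 TPM against 20.63 and 22.33 TPM (-0.53 ± 0.09, adjusted p = 0.036). Hspa4, the remaining HSP110 gene listed here, overlapped between groups, with 80.38 and 103.5 TPM against 72.02 and 85.75 TPM and an adjusted p of 0.386 (limma).

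Hspa8, the protein partner of Shisa3 in the study, was at 3497.04 and 3692.96 TPM in AAV-GFP cells and at 2593.0 and 2820.15 TPM in AAV-Shisa3 cells. It fell by 0.41 on the log2 scale (SE 0.08, 95% interval -0.61 to -0.21, adjusted p = 0.044, limma), to 0.753 times the AAV-GFP mean, and was the least changed of the 6 by fold. Hspa8 supplied 36.5% and 37.4% of the summed chaperone TPM with AAV-GFP and 32.2% and 34.7% with AAV-Shisa3. The summed TPM of the 50 genes was 9577 and 9874 with AAV-GFP and 8042 and 8124 with AAV-Shisa3, and without Hspa8 it was 6080 and 6181 against 5449 and 5304.

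Gene copies complicate some of these values. Of the 150-base windows of Hspa8 55.4% occur also in 4 other annotated genes, of which Gm15459 was highest at 28.58 and 34.09 TPM in AAV-GFP cells and 18.18 and 18.36 TPM in AAV-Shisa3 cells. Dnaja1 shared 11.6% of its windows with Gm15542, Gm6335 and Gm7816, of which Gm15542 was highest at 10.68 and 10.01 TPM against 5.18 and 4.75 TPM. Ahsa1 shared 6.35% with Gm49207 at 9.89 and 9.11 TPM against 5.75 and 6.61 TPM. Gm15459, Gm15542 and Gm49207 were each lower in both AAV-Shisa3 samples than in both AAV-GFP samples, at a small fraction of the level of the chaperone gene. St13, Hspa4l and Hsph1 shared no window with another gene. Shared windows also made up 53.4% of Hspb1, 36.2% of Hsp90aa1, 28.8% of Dnajb6, 18.6% of Hspd1, 14.1% of Hspe1 and 10.5% of Hspa14 (ENSMUSG00000109865.1). With LPS Hspd1-ps3, which shares windows with Hspd1, was at 6.43, 67.7 and 50.0 in the authors' units at 0, 2 and 4 h. Hspd1 itself was at 515, 332 and 492.

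**Figure D3:**
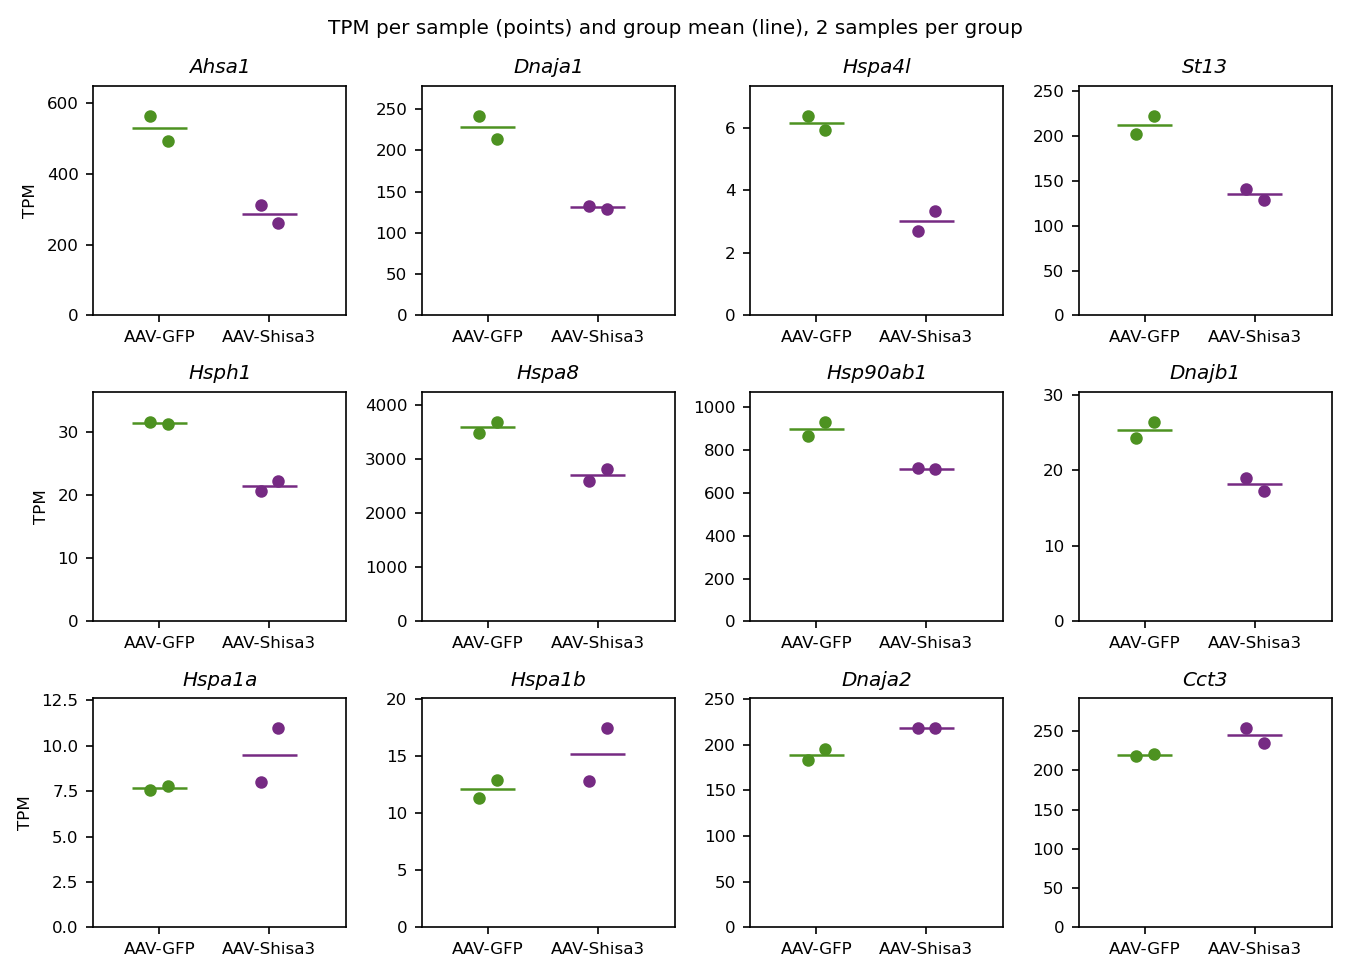
TPM (vertical axis, from 0 in each panel) of 12 chaperone genes in each AAV-GFP and AAV-Shisa3 sample (points, 2 per group) with the group mean (line). Ahsa1, Dnaja1, Hspa4l, St13, Hsph1 and Hspa8 are lower in both AAV-Shisa3 samples, and Hspa1a, Hspa1b, Dnaja2 and Cct3 have a higher AAV-Shisa3 mean without passing the threshold.

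The support for these 6 calls is limited by the 2 samples per group, where the smallest two-sided p that an exact permutation test can give for 1 gene is 0.333. With any one sample left out, none of the 6 passed (adjusted p = 0.064 to 0.226, limma), and none passed without the trend of variance on level (0.056 to 0.103) or without the filter (0.105 to 0.198). With each sample centred on its median, which moves the all-gene median from -0.10 to 0.01, Ahsa1, Dnaja1 and St13 passed and Hspa4l, Hsph1 and Hspa8 did not (adjusted p up to 0.115). Summed neutrophil markers were 545 and 513 TPM in AAV-GFP cells against 966 and 598 TPM in AAV-Shisa3 cells, and summed proliferation markers were 346 and 309 TPM against 443 and 364 TPM. Their part in the chaperone values was not tested, and in bulk RNA fewer cells of a type and less RNA per cell cannot be told apart.

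None of the 4 HSP90 genes passed. Hsp90ab1 was at 864.21 and 930.4 TPM against 714.08 and 711.12 TPM, a log2 fold change of -0.33 ± 0.07 (SE) that missed the threshold at an adjusted p of 0.054 (limma). Among the alternative fits it passed with at least 1 TPM in every sample (adjusted p = 0.044, limma) and with replicate numbers as a block (0.035). Hsp90b1 had -0.33 (adjusted p = 0.101), whereas Hsp90aa1, at 305.16 and 307.2 TPM against 280.15 and 294.63 TPM, had -0.09 (adjusted p = 0.425) and Trap1, the mitochondrial HSP90, had 0.04. Of their co-chaperones Stip1 had -0.27 (adjusted p = 0.115), Cdc37, which loads kinases onto HSP90, had -0.07, and Stub1, a ubiquitin ligase for chaperone clients, had -0.08. All 5 co-chaperones of this group were below 0, where the all-gene median was -0.10. Of the 5, 2 passed the test as lower, where 4.10% of all genes did. With each sample centred on its median Cdc37 (0.042) and Stub1 (0.031) were above 0.

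The inducible HSP70 genes had positive values, neither of them past the threshold. Hspa1a was at 7.54 and 7.78 TPM against 7.98 and 10.98 TPM (log2 fold change 0.26, 95% interval -0.15 to 0.67, adjusted p = 0.355, limma). Hspa1b was at 11.37 and 12.93 TPM against 12.87 and 17.5 TPM (0.29, -0.12 to 0.70, adjusted p = 0.311), and its groups overlapped. Both values rest on the second AAV-Shisa3 sample, without which they were 0.052 for Hspa1a and 0.079 for Hspa1b, and without the first they were 0.47 and 0.50. Hspa9, the mitochondrial HSP70, had 0.09, Hspa13 had 0.01 and Hspa14 had -0.23, none past the threshold. In TPM, a level per length, Hspa8 was 549 and 624 times as high as Hspa4l, the lowest of the HSP70 and HSP110 genes, in the AAV-GFP samples.

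Among the 14 J proteins tested 10 were below 0, where the all-gene median was -0.10. Dnaja1 alone passed, where 4.10% of all genes were lower. With each sample centred on its median Dnaja3 (0.092) and Dnajb14 (0.093) were above 0. Dnajb1, the classical partner of inducible HSP70, was at 24.25 and 26.41 TPM against 19.01 and 17.3 TPM (-0.46 ± 0.10, SE, adjusted p = 0.061, limma). Dnaja2 went the other way from its relative Dnaja1, at 183.19 and 195.14 TPM against 218.26 TPM in both AAV-Shisa3 samples (0.21, 95% interval 0.03 to 0.38, adjusted p = 0.138), and it replaced Dnaja1 as the highest J protein in both AAV-Shisa3 samples. The difference between Dnaja1 and Dnaja2 was not tested. Dnajc2, a J protein at the ribosome, had -0.31 (adjusted p = 0.093) and Dnajb4 had 0.31 (adjusted p = 0.237), the highest value of the 48.

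Hsf1 was at 36.44 and 33.04 TPM against 28.79 and 28.39 TPM (-0.27, adjusted p = 0.137, limma) and Hsf2 at 8.77 and 9.43 TPM against 6.66 and 7.04 TPM (-0.36, adjusted p = 0.130). Neither passed. In both genes the AAV-Shisa3 samples were below the AAV-GFP samples, as in 41.2% of all genes. Hspd1, at 111.3 and 121.15 TPM against 105.68 and 111.4 TPM, had -0.10 (95% interval -0.30 to 0.10) and Hspe1, at 159.03 and 182.76 TPM against 151.41 and 166.0 TPM, also had -0.10 (-0.34 to 0.14). Hspe1 stood at 1.43 to 1.51 times the TPM of Hspd1 in the 4 AAV samples.

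The 7 CCT subunits listed here, which with Cct6a build the chaperonin ring, were narrow in level, from 127.08 to 234.61 TPM in AAV-GFP cells and from 112.95 to 259.48 TPM with AAV-Shisa3. Cct4 was the lowest of them in all 4 samples. Their log2 fold changes ran from -0.17 (Cct4) to 0.15 (Cct3), and none passed. The 5 BAG genes ran from -0.09 (Bag3) to 0.04 (Bag5), among them Bag1, the most abundant, at 180.05 and 186.01 TPM against 194.22 and 181.69 TPM. Bag2 (1.49 and 2.02 TPM against 1.41 and 1.87 TPM) and Dnajb14 (2.56 and 3.02 TPM against 2.62 and 2.83 TPM), both lower at 4 h of LPS, overlapped between the AAV groups.

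**Figure D4:**
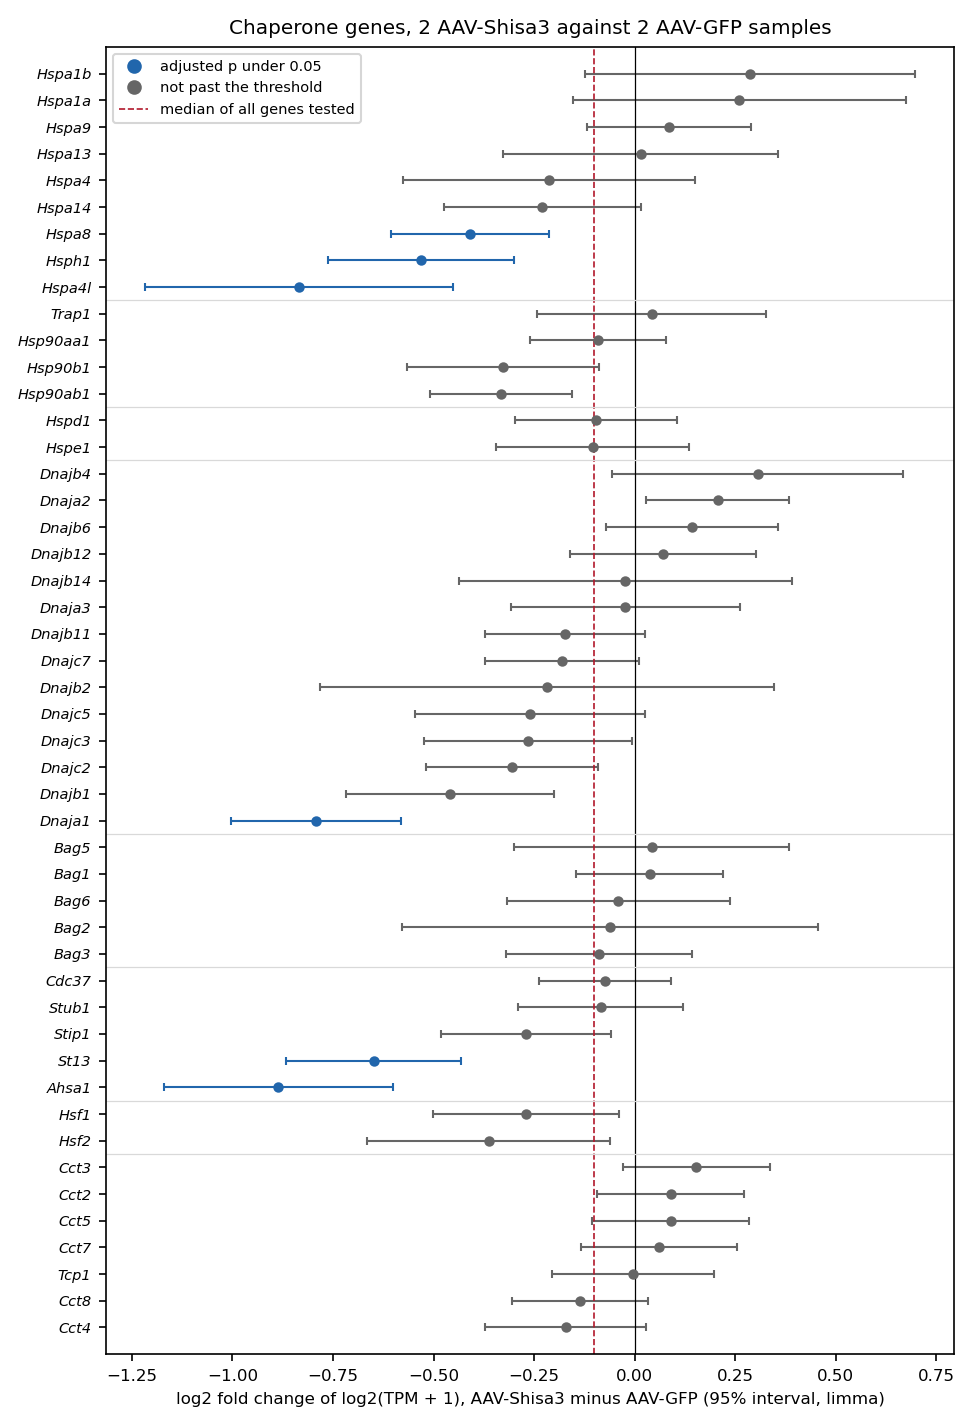
Log2 fold change of log2(TPM + 1), AAV-Shisa3 minus AAV-GFP, with 95% limma intervals (horizontal axis) for the 48 chaperone genes tested, grouped by role. The 6 genes past the threshold (blue) lie between -0.89 and -0.41, and the dashed line marks the median of all genes at -0.10.

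Of the 83 further chaperone-system genes 73 were tested, and 3 were lower (4.11%, near the 4.10% of all genes) and 0 higher. At an unadjusted p under 0.05 (limma) 22 were lower (30.1%) and 0 higher, where 19.8% and 8.21% of all genes were. The 3 were Fkbp4 (log2 fold change -0.78, adjusted p = 0.020) and Chordc1 (-0.71, adjusted p = 0.021), both co-chaperones of HSP90, and Pdia4 (-0.65, adjusted p = 0.034), a disulfide isomerase of the endoplasmic reticulum. With samples centred on their medians Pdia4 did not pass (adjusted p = 0.062, limma), and none of the 3 passed with any one sample left out (0.074 to 0.168), without the trend (0.056 to 0.079) or without the filter (0.105 to 0.146). In 11 of the 12 endoplasmic reticulum chaperones both AAV-Shisa3 samples were below both AAV-GFP samples, as in 41.2% of all genes, and all 12 fitted values were negative, where the all-gene median was -0.10. Chaperone genes with a motif of 2 heat shock element units in their window had a median log2 fold change of -0.07 (13 genes tested, 2 lower) and those without had -0.14 (25 genes, 2 lower). For the motif of 3 units the medians were -0.10 with it (4 genes, 1 lower) and -0.07 without it (34 genes, 3 lower).

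Set side by side, the experiments gave the chaperone genes different leaders. Hspa1a and Hspa1b, the largest rises with LPS, did not pass the test with AAV-Shisa3. Dnaja1 fell with AAV-Shisa3 and was higher at 4 h of LPS (2.14), whereas Hsph1 was lower in both. Ahsa1 had 1217, 321 and 1314 LPS reads and a 4 h log2 fold change of -0.13 (-0.96 on library totals), St13 had 2112, 559 and 2619 reads and 0.07 (-0.76), and Hspa4l had 763, 164 and 814 reads and -0.15 (-0.97). With libraries centred on their medians the 4 h values of Ahsa1, St13 and Hspa4l were all above 0, so their direction rests on the scaling. On the authors' scale 23 of 48 genes had the same sign at 4 h of LPS and with AAV-Shisa3, and 30 had at 2 h, whereas on library totals 33 had at each time. Of the 48 AAV values 33 were below 0, and library totals lower every LPS value, so these counts depend on the scaling. Across these genes, which are not independent replicates, Pearson's r was 0.40 at 2 h and 0.26 at 4 h and Spearman's rho 0.42 and 0.23, as a description only.

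**Figure D5:**
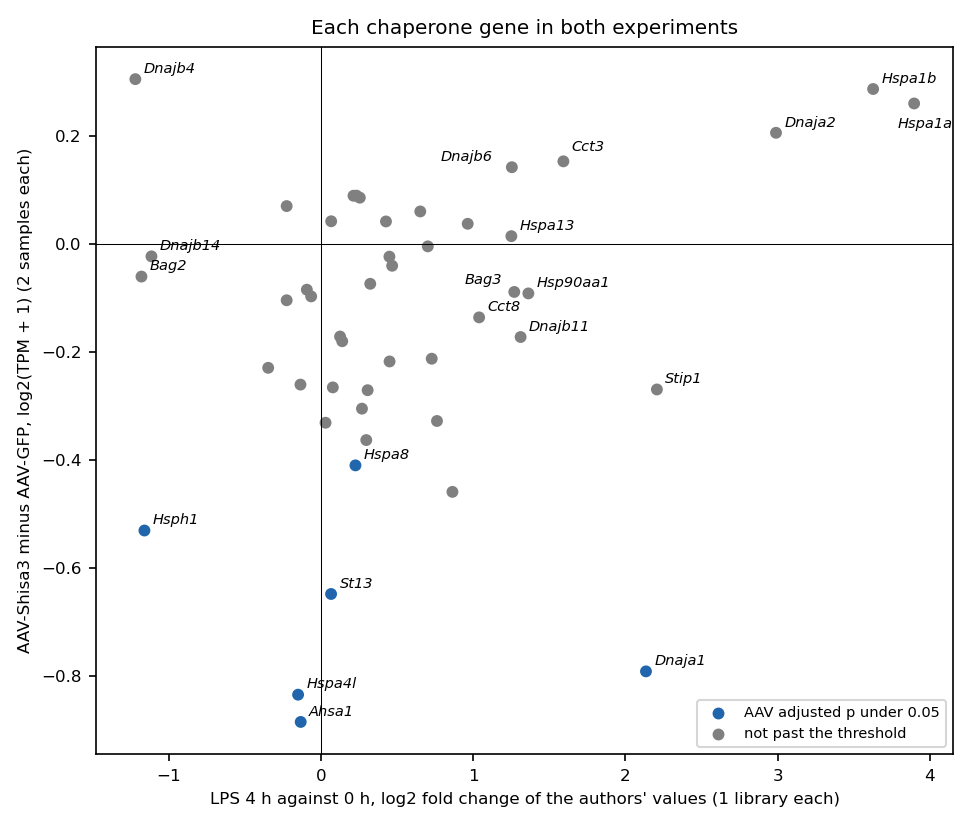
Log2 fold change with AAV-Shisa3 against AAV-GFP (vertical axis) plotted against the log2 fold change at 4 h of LPS on the authors' scale (horizontal axis), 1 point per chaperone gene tested, with the 6 genes past the AAV threshold in blue. Dnaja1 lies at 2.14 and -0.79, and Hspa1a and Hspa1b lie at the upper right.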

How the data were processed

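BMDM RNA was sequenced in 3 LPS libraries (0, 2 and 4 h) and 4 AAV samples (2 AAV-GFP, 2 AAV-Shisa3), grouped by the sample labels. The LPS values deposited by the authors are a signal, whole reads per gene multiplied by a constant of the library, and those reads were recovered. For AAV the authors deposited values that sum to 999778 to 999818 per sample, read here as TPM from the values. The aligner and annotation are not given in the sources used here, and the submitters' processing notes list mm9 without a role. Coordinates and transcripts are from GENCODE M21 (GRCm38), matched on identifiers without version for 50 of 51 rows. Promoters are from RefSeq.

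LPS folds were taken on log2(value + 1) where the mean reached 1, called at 2-fold, with no test. AAV genes whose mean reached 1 TPM were tested with limma 3.58.1 (trend, log2(TPM + 1)) in R 4.3.3, and the step was tested on simulated data. edgeR 4.0.16 gave TMM factors. No count test could be fitted with 1 library per time point. Alternatives were library totals, TMM, centring, pseudocounts of 0.1 and 5, other filters, no trend, a replicate block and leaving out each sample. Values are given per sample for Hspa8, class representatives fixed by name, genes past the threshold and the 5 largest rises and falls at 2 h and 4 h of LPS, together with further members chosen after their values were seen. The member genes and lists were chosen with earlier results of these data known.

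Intervals and the floor of 3 reads cover counting error only. In 3 of 2674 genes above 50 TPM in both AAV-GFP samples (Cct5 among them) and 1 of 2567 in AAV-Shisa3 (Dnaja2) both samples held the same printed value.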

Additional observations from a re-analysis of the deposited data

How the results depend on the processing

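The number of chaperone genes lower with AAV-Shisa3, 6 as reported, was 0 without the trend, 3 with samples centred on their medians, 0 without the filter and 0 with any one sample left out, where the lone sample is assumed to vary like the other group and fewer samples are fitted. At least 1 TPM in every sample gave 7 and a pseudocount of 0.1 gave 6. Their median log2 fold change, -0.09, was 0.021 after centring and -0.15 to -0.067 with a sample left out. The labels do not say whether samples with the same replicate number belong together, and the correlation of 0.188 between the 2 replicate differences cannot settle it. The replicate block gave 7 lower and 0 higher chaperone genes, adding Hsp90ab1 (adjusted p = 0.035, limma). Over all genes, 250 higher and 460 lower became 424 and 851 with the block, 1 and 4 without the trend, 410 and 230 after centring and 0 and 0 without the filter, and 0 to 32 and 0 to 10 with a sample left out. Centring turned the sign of Bag2 (0.055), Bag3 (0.027), Dnajb14 (0.093), Hsp90aa1 (0.024), Hspd1 (0.019), Hspe1 (0.011), Bag6 (0.075), Cdc37 (0.042), Stub1 (0.031), Tcp1 (0.11) and Dnaja3 (0.092), none of which passed the test, and leaving out a sample gave Bag2 -0.20 to 0.079 and Dnajb14 -0.11 to 0.065.

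For LPS on library totals, 4 chaperone rows were higher and 8 lower at 2 h (median -0.38, with 13.9% and 41.2% of all genes higher and lower), 6 and 8 at 4 h (median -0.52, with 13.4% and 44.7%) and 1 and 2 from 2 h to 4 h (median -0.012). Centring on library medians gave 13 and 1 at 2 h (median 0.60, with 26.9% and 19.3% of all genes) and 19 and 0 at 4 h (median 0.67, with 29.6% and 17.0%). A pseudocount of 5 and a filter at a mean of 5 each gave 1 lower at 2 h and 1 higher from 2 h to 4 h. TMM factors took Cct8 at 4 h to 0.99, just under 2-fold, and turned the sign of Hspa8 (-0.05), Cct4 (-0.0036) and Dnajb12 (-0.04) at 2 h and of Hsp90ab1 at 4 h (-0.02). The shallow 2 h library, with 7263258 reads, limits genes with few reads there, such as Dnaja4, Hspb1 and Bag2, and depth of the AAV samples is unknown.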
